A study of Mus musculus with 60 samples.

Results

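The comparison set prefrontal cortex of wild-type (WT) mice exposed to fluoxetine against prefrontal cortex of WT mice exposed to lithium. Its members are the 20 WT libraries of these drugs, 10 for fluoxetine and 10 for lithium, of 60 libraries in all, and they were chosen by the genotype and drug in their labels, with sex as a block. The mice were C57BL/6J, carried the WT genotype for Trip12 (a ubiquitin ligase gene whose heterozygous loss is the subject of the series), and were analysed on postnatal day 25. The drugs had reached the pups through the milk of the dam from day 3 to day 24, so all groups share this route, and the labels give no dose, dam, litter or batch. Each drug had 5 female and 5 male libraries. The 20 heterozygous (HT) libraries of the same drugs served as a second set that shares no library with the WT comparison, and the 10 WT vehicle libraries are given as levels only: differences from vehicle were not tested here. The labels do not say that libraries came from separate animals, so p-values measure the spread between these libraries.

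Fluoxetine is a selective serotonin reuptake inhibitor: it blocks the serotonin transporter and so prolongs the action of serotonin released in the cortex. Lithium, a mood stabiliser, inhibits glycogen synthase kinase 3 (GSK3), which marks β-catenin for destruction, and inositol monophosphatase, which recycles inositol for lipid signalling. Both drugs are known to act on programmes that neurons switch on with activity, among them the immediate early genes and the neurotrophin Bdnf.

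Values are normalized counts (reads per gene divided by a size factor for each library). A difference is fluoxetine minus lithium on the scale log2(normalized count + 1), given ± its standard error (SE), from a limma model over all genes with sex as a block. A gene was called, and is said to have risen or fallen in fluoxetine relative to lithium, at a Benjamini-Hochberg adjusted p under 0.05 over all 17103 genes tested.

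The libraries were not equal in every technical respect. Female depth was alike, at 34.5 ± 1.41 M reads (M, mega) for fluoxetine and 34.7 ± 0.86 M for lithium (SD, n = 5 each; exact two-sided permutation p = 0.84). Male depth was 34.5 ± 1.76 M reads for fluoxetine and 28.4 ± 3.19 M for lithium (SD, n = 5 each), an exact two-sided permutation p of 0.0079, the smallest that 252 arrangements allow, and 0.016 after adjustment over the sexes. Fluoxetine male replicate 2 stood apart: its median absolute log2 deviation from its group was 0.2377, against 0.0898 to 0.170 in the other WT libraries of these drugs. Its levels ran lower for longer genes, with a slope of -0.218 log2 units per doubling of exonic length, against -0.0701 to 0.0847 in the other 59 libraries. Slopes were 0.0403 to 0.0672 in fluoxetine females and -0.0382 to -0.0133 in lithium females. Without replicate 2 they were 0.00166 to 0.0166 in fluoxetine males, against -0.069 to -0.00197 in lithium males. The part of depth and of the length slope in the differences below was not tested beyond fits with each as a covariate. Markers of cortical excitatory neurons were abundant in every library (summed level 169371 to 208033 in fluoxetine and 151413 to 208423 in lithium). Striatal markers summed to 12171 to 24516 in fluoxetine and 12816 to 15910 in lithium, and red blood cell markers to 14001 to 39722 in fluoxetine and 14415 to 19747 in lithium. Limma and edgeR called 0 of the 16 striatal and 0 of the 7 red blood cell markers, DESeq2 called 2 and 0, and 5 and 0 had an unadjusted p under 0.05. In males the red blood cell markers had a median difference of 1.05 and summed to 14820 to 39722 in fluoxetine against 14415 to 19747 in lithium. There 6 of the 7 had an unadjusted p under 0.05, with 0 called by limma, edgeR or DESeq2. With the length slope as a covariate and the sexes together, 3 rose, and the part of blood in the differences below was not tested. The choroid plexus markers Ttr, Otx2 and Folr1 had median levels under 10.

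With the sexes together 1215 genes were called, which is 7.1% of those tested. Fluoxetine was higher for 534 genes (3.12%) and lower for 681 (3.98%), and 4006 genes had an unadjusted p under 0.05. Without fluoxetine male replicate 2, 3056 of 17072 genes were called (17.9%), with 1473 higher (8.63%) and 1583 lower (9.27%), and these held all 1215 calls of the full set. The lower genes included the stress-response factor Atf4, the activity genes Arc and Nr4a1, Bdnf, glucocorticoid-induced genes such as Sult1a1, and many nuclear genes of the respiratory chain. The higher genes included Ctnnb1, the presynaptic genes Rims1 and Syn1, cell cycle genes and some glial and vascular genes. The median SE of a difference was 0.0711.

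**Figure D1:**
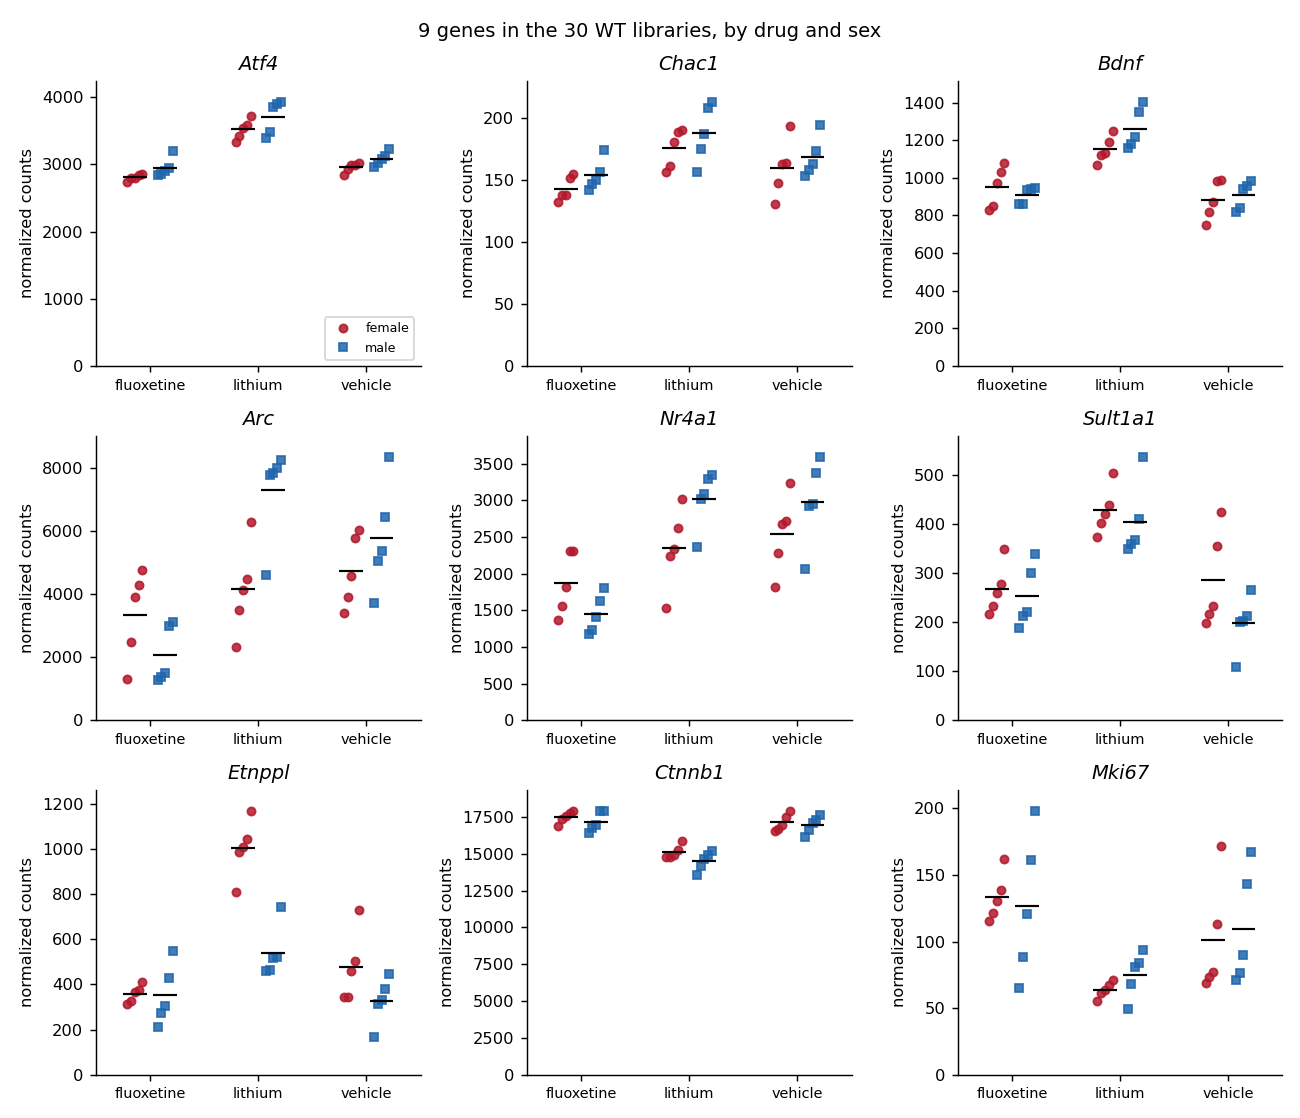
Normalized counts of Atf4, Chac1, Bdnf, Arc, Nr4a1, Sult1a1, Etnppl, Ctnnb1 and Mki67 in each WT library of fluoxetine, lithium and vehicle, from left to right. Red circles are females, blue squares are males, and bars are group means. The fluoxetine and lithium libraries do not overlap for Atf4 (highest fluoxetine value 3199, lowest lithium value 3336) or Ctnnb1 (lowest fluoxetine value 16435, highest lithium value 15832), whereas Arc overlaps.

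The integrated stress response slows general translation and switches on Atf4, a transcription factor that drives amino acid supply and stress genes. Of 24 genes of this list tested, 0 rose and 7 fell, where 3.98% of all genes fell (Atf4, Chac1, Mthfd2, Sesn2, Ppp1r15a, Ddit3 and Pck2), with a list median of -0.09 against 0.00 for all genes. Atf4 (ENSMUSG00000042406, chr15:80255184-80257541 of GRCm38, + strand) had 2730, 2850 and 3199 normalized counts as the lowest, median and highest of the fluoxetine libraries, against 3336, 3565 and 3926 in lithium and 2848, 3006 and 3228 in vehicle. Every fluoxetine library was below every lithium library, with a difference of -0.33 ± 0.03 (adjusted p = 3.72e-05), equal in the sexes at -0.33 each. In HT the difference was -0.42 (adjusted p = 0.000247). Chac1, an enzyme that degrades glutathione and a known Atf4 target, had 132.1, 148.5 and 174.7 normalized counts in fluoxetine, against 156.2, 184.2 and 213 in lithium, with overlap, and fell by 0.29 ± 0.07 on the log2 scale (adjusted p = 0.0125). Mthfd2, a mitochondrial folate enzyme, fell by 0.34 (adjusted p = 0.0258). Ppp1r15a, which restores translation after stress, fell by 0.22 (adjusted p = 0.0205), and in HT 9 members of the list fell, where 11.8% of all genes did. With each library left out in turn the list held 3 to 12 called members, the highest count without fluoxetine male replicate 2. That fit called 17.9% of all genes.

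The promoter of Chac1, read from RefSeq on GRCm38.p6 over 250 bases before and 50 after its start, is shown because it holds a site of the kind Atf4 binds. The motif searched was TGATGNAA on both strands, present in 3.91% of 32544 promoters, and its reverse complement is the run in capitals below, beginning at -193. Chac1 and Pck2 were the 2 of 7 called stress genes with a promoter that held it. Among the list members with a promoter, called or not, it was found in 6 of 22. A match is a description of the letters only.

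Chac1 promoter (chr2:119350992-119351291, + strand): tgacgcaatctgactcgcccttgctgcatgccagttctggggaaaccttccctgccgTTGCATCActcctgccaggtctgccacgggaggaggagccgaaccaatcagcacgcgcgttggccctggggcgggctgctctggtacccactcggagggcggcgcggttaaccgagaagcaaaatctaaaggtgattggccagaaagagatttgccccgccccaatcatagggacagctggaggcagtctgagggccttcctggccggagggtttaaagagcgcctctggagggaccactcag

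Immediate early genes are transcribed within minutes of neuronal activity and encode factors such as Fos, Jun and Nr4a1 and effectors such as Arc. Of 27 tested, 1 rose and 11 fell, where 3.12% of all genes rose and 3.98% fell. The list median was -0.28 and 25 of 27 members lay below 0. The 11 that fell were Arc, Dusp1, Nr4a1, Egr2, Btg2, Ier2, Junb, Fos, Dusp6, Ier5 and Jun, and the gene that rose was Nr4a2, which also marks deep cortical cells. Arc (ENSMUSG00000022602, chr15:74669083-74672570, - strand), which trims synaptic receptors, had 1295, 2735 and 4777 normalized counts in fluoxetine against 2332, 5452 and 8258 in lithium and 3409, 5218 and 8364 in vehicle. The fluoxetine and lithium libraries overlapped, and Arc fell by 1.14 ± 0.28 on the log2 scale (adjusted p = 0.0178). In males the fluoxetine libraries lay at 1295 to 3110 and the lithium libraries at 4610 to 8258 with no overlap, and Arc fell by 1.90 ± 0.32 on the log2 scale (adjusted p = 0.0102). In females the difference was -0.38 ± 0.32 (adjusted p = 0.516), and the difference between the sexes was not called (adjusted p = 0.252). Nr4a1, a nuclear receptor that responds to activity, had 1172, 1591 and 2306 normalized counts in fluoxetine against 1532, 2819 and 3346 in lithium, and fell by 0.70 ± 0.14 (adjusted p = 0.00626). Fos had 454, 619 and 939.8 normalized counts in fluoxetine against 604, 992 and 1305 in lithium and fell by 0.54 ± 0.14 (adjusted p = 0.0219). Dusp6, a phosphatase that shuts off ERK signalling, had 1601, 1657 and 2353 in fluoxetine against 1884, 2446 and 3075 in lithium and fell by 0.45 ± 0.09 (adjusted p = 0.00561). With the sexes apart, 1 member fell in females, where 3.12% of all genes did, and 10 fell in males, where 0.403% did. With depth as a covariate 2 of the 27 were called, Dusp6 and Jun, and Arc differed by -0.69 (adjusted p = 0.138). The same covariate gave Arc in males a difference of -1.38 (adjusted p = 0.981), and in males limma then called 0 of all genes, with 804 at an unadjusted p under 0.05.

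Among genes that activity induces later, 0 of 25 tested rose and 7 fell: Gadd45b, Gadd45g, Cdkn1a, Vgf, Bdnf, Nptx2 and Pcsk1, with a list median of -0.18. Of all genes 3.12% rose and 3.98% fell. Bdnf (ENSMUSG00000048482, chr2:109674700-109727007, + strand), the neurotrophin that supports synapses, had 827, 938 and 1080 normalized counts in fluoxetine against 1071, 1184 and 1403 in lithium and 748, 905 and 991 in vehicle. The highest fluoxetine value lay just above the lowest lithium value, and Bdnf fell by 0.38 ± 0.05 on the log2 scale (adjusted p = 0.00132). In HT the difference was -0.30 (adjusted p = 0.0545). Gadd45b, a DNA repair and demethylation factor, had 204, 245 and 299 in fluoxetine against 291, 355 and 462 in lithium and fell by 0.55 ± 0.08 (adjusted p = 0.00132). Of 9 neurotrophin and receptor genes tested 0 rose and 2 fell, Bdnf and Vgf, beside the same shares of all genes. The list median was 0.05 and 3 of 9 lay below 0. Without fluoxetine male replicate 2 the list held 2 rises and 2 falls, where 8.63% of all genes rose and 9.27% fell. The Bdnf receptor gene Ntrk2 was not called (difference 0.04, adjusted p = 0.668).

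Promoters of Dusp1 and Btg2 are shown because they were the 2 of 10 called immediate early genes with a promoter that held the cyclic AMP response element TGACGTCA, which activity-driven factors bind and which 1.8% of RefSeq promoters hold on either strand. Capitals mark the element, which begins at -143 in Dusp1 and at -166 in Btg2. Among the list members with a promoter, called or not, it was found in 3 of 22.

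Dusp1 promoter (chr17:26508423-26508722, - strand): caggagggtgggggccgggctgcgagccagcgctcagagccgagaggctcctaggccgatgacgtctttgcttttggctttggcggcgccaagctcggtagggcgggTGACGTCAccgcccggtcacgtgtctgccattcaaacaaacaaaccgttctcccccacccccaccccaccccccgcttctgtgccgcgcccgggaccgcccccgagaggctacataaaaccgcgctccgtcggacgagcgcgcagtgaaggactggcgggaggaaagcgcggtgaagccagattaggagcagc

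Btg2 promoter (chr1:134079106-134079405, - strand): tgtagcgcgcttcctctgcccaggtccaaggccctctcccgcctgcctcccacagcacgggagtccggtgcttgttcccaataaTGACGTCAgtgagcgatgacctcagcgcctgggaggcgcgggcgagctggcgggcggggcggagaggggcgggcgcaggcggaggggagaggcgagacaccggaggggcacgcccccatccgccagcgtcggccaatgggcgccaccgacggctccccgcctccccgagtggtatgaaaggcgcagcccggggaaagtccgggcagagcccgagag

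Genes that glucocorticoids induce were lower in fluoxetine than in lithium. Of 20 tested, 0 rose and 11 fell, where 3.12% of all genes rose and 3.98% fell. Those that fell included Sult1a1, Tsc22d3, Fkbp5, Mt1 and Mt2, and the list median was -0.37. Sult1a1 (ENSMUSG00000030711, chr7:126672865-126676432, - strand), a sulfotransferase, had 187.7, 246.3 and 349.7 normalized counts in fluoxetine against 349, 407.1 and 538.2 in lithium and 108.6, 215.2 and 424.4 in vehicle. The drugs met only at the highest fluoxetine and lowest lithium values, and Sult1a1 fell by 0.69 ± 0.11 on the log2 scale (adjusted p = 0.00141), alike in females and males (-0.69 and -0.70). Tsc22d3, a glucocorticoid-induced leucine zipper, had 1206, 1808 and 2423 in fluoxetine against 1988, 2478 and 2718 in lithium and fell by 0.44 ± 0.09 (adjusted p = 0.00706). In HT libraries 4 members fell and 1 rose, where 11.8% of all genes fell and 11.4% rose, and Sult1a1 had a difference of -0.39 (adjusted p = 0.108). With depth or with the length slope as a covariate 7 members were called, as fallen. Dusp1 and Cdkn1a also belong to activity lists.

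Circadian clock genes moved in the same direction at a few loci. Of 22 tested 0 rose and 4 fell, the repressors Per2, Per3, Ciart and Cry1, where 3.12% of all genes rose and 3.98% fell. Per2 had 1071, 1360 and 1522 normalized counts in fluoxetine against 1438, 1741 and 2079 in lithium and fell by 0.34 ± 0.07 on the log2 scale (adjusted p = 0.00753). With depth as a covariate the adjusted p of these 4 genes was 0.0651 to 0.163. The labels give no time of day, so a difference in sampling time cannot be told apart from the drugs. The promoter of Ciart is shown since it holds 3 copies of the E-box CACGTG, in capitals, which the clock activators bind and which 7.17% of RefSeq promoters hold.

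Ciart promoter (chr3:95882179-95882478, - strand): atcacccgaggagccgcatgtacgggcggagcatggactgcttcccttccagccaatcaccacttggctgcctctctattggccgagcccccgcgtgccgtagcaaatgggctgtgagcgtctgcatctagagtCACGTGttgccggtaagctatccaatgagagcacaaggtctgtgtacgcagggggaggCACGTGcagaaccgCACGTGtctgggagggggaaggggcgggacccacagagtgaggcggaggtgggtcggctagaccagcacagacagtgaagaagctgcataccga

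**Figure D2:**
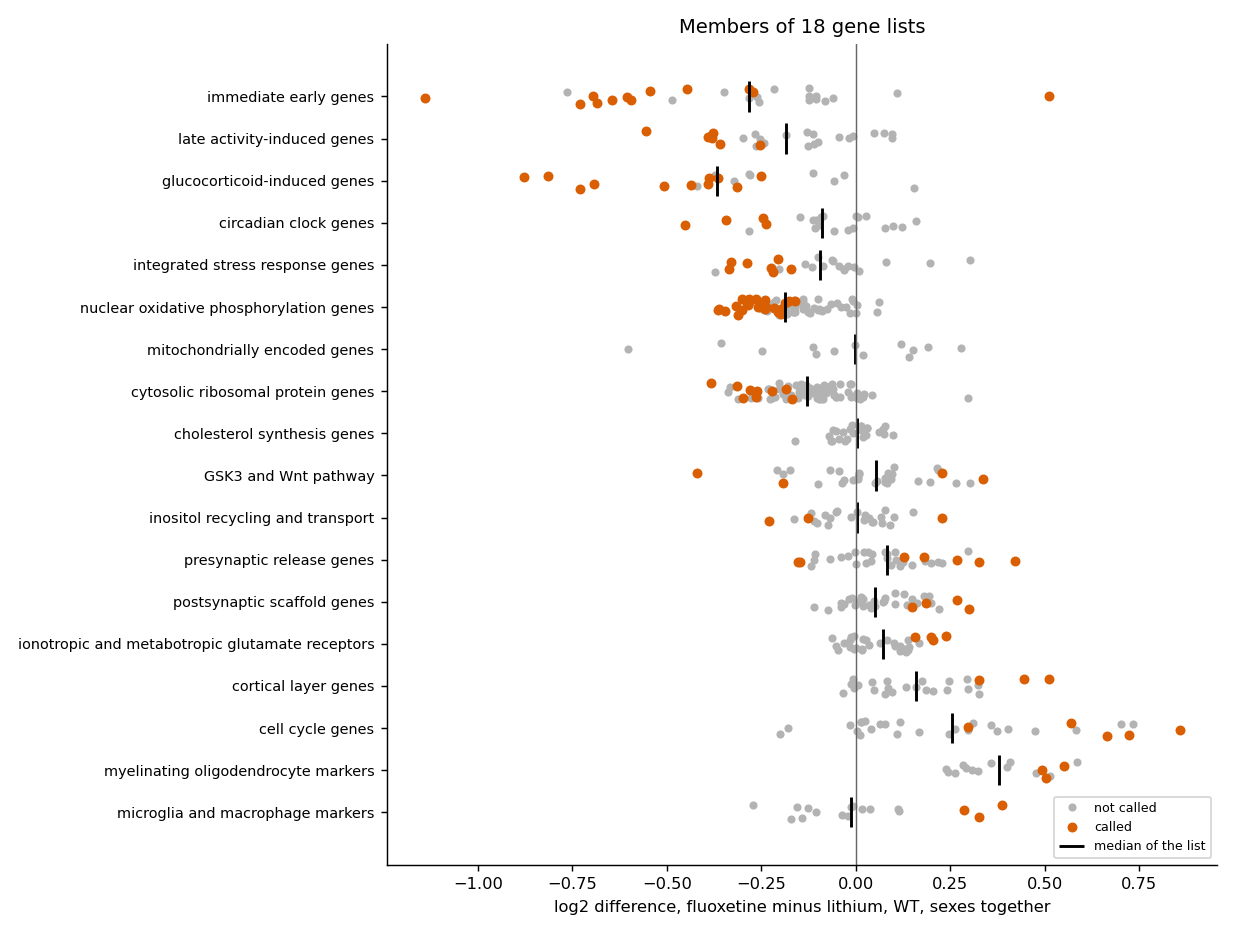
Difference (log2, fluoxetine minus lithium, sexes together) of each member of the pathway and marker lists named on the vertical axis. Orange points are called genes, grey points are not, and black bars are list medians. Called members lie left of 0 in the stress, glucocorticoid, clock, respiratory and ribosomal lists and right of 0 in the cell cycle, cortical layer and myelin lists.

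Nuclear genes of oxidative phosphorylation, which encode most subunits of the respiratory chain and ATP synthase, were lower in fluoxetine. Of 76 tested 0 rose and 28 fell, where 3.12% of all genes rose and 3.98% fell. The list median was -0.19, with 72 members below 0. Cox7b, a cytochrome oxidase subunit, had 2617, 2831 and 3591 normalized counts in fluoxetine against 3180, 3442 and 3519 in lithium and fell by 0.24 ± 0.04 on the log2 scale (adjusted p = 0.00317). The highest fluoxetine value lay above all lithium values. Uqcrh, a complex III subunit, fell by 0.36 (adjusted p = 0.0107), and Cyc1, its cytochrome, fell by 0.24 (adjusted p = 0.00816). The 13 genes encoded by the mitochondrial genome had 0 calls and a median of 0.00. By limma 4 of these 13 had an unadjusted p under 0.05, and edgeR called 0 and DESeq2 1. Without fluoxetine male replicate 2, 62 of the 76 nuclear genes fell, where 9.27% of all genes did, and without fluoxetine female replicate 5 the count was 15. With the length slope as a covariate 25 fell and the median was -0.11. In females 41 of the 76 fell, where 3.12% of all genes did, with a median of -0.29. In males the limma count was 0, where 0.403% of all genes fell, with 5 members at an unadjusted p under 0.05, 0 called by edgeR or DESeq2, and a median of -0.09.

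Ribosomal protein genes, which build the translation machinery, were also lower. Of 78 cytosolic members 0 rose and 9 fell, where 3.98% of all genes fell, with a list median of -0.13. Without fluoxetine male replicate 2, 46 fell, where 9.27% of all genes did. Rps15a, a small-subunit protein, had 2510, 2903 and 3323 normalized counts in fluoxetine against 3000, 3485 and 3688 in lithium and fell by 0.26 ± 0.05 on the log2 scale (adjusted p = 0.00598). In females 40 of the 78 fell, where 3.12% of all genes did, with a median of -0.28. In males limma called 0 with a median of 0.03, 2 members had an unadjusted p under 0.05, and edgeR and DESeq2 called 0. With the length slope as a covariate 4 members were called and the median was -0.04, and with depth as a covariate 31 were called. Without fluoxetine female replicate 5 the count was 2. Many have pseudogene copies, so the split of their reads is uncertain.

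**Figure D3:**
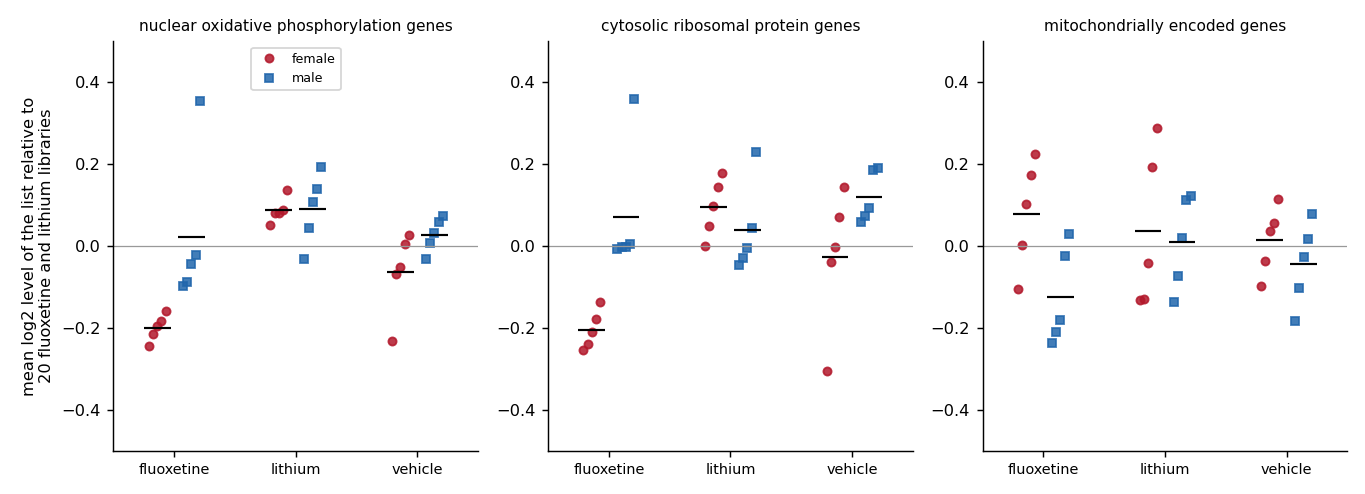
Mean log2 level of 3 gene lists in each WT library, relative to the mean of the fluoxetine and lithium libraries, with fluoxetine left, lithium next and vehicle last; red circles are females, blue squares males. In females the nuclear respiratory genes lie at -0.243 to -0.159 in fluoxetine and at 0.051 to 0.136 in lithium; in males 1 fluoxetine library reaches 0.355, and the mitochondrially encoded genes overlap.

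Genes of protein quality control and lipid synthesis were counted next, where 3.12% of all genes rose and 3.98% fell. Of 24 heat shock and chaperone genes 0 rose and 3 fell: Hspb1 and the mitochondrial chaperonin subunit Hspe1 fell by 0.33 and 0.24 on the log2 scale, and the co-chaperone Dnajb5 fell by 0.23. Of 25 genes of the endoplasmic reticulum chaperones 0 rose and 1 fell, Sdf2l1, which fell by 0.41 ± 0.08 (adjusted p = 0.00667) and by 0.59 in HT (adjusted p = 0.00132). Of 31 proteasome genes 0 rose and 1 fell (Psma3), and 14 fell without fluoxetine male replicate 2, where 9.27% of all genes did. Of 47 mitochondrial ribosomal genes 0 rose and 3 fell (Mrps11, Mrps17 and Mrps33). Without that library 21 fell, beside the same 9.27% of all genes. Of 20 fatty acid synthesis genes Elovl7 rose by 0.27 and the desaturase Scd1 and elongase Elovl4 fell by 0.30 and 0.17.

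Called genes of the pathways that lithium acts on moved in both directions. Ctnnb1 (ENSMUSG00000006932, chr9:120929216-120960507, + strand), which encodes β-catenin, had 16435, 17445 and 17889 normalized counts in fluoxetine against 13535, 14857 and 15832 in lithium and 16118, 17043 and 17885 in vehicle. The drugs did not overlap, and Ctnnb1 rose by 0.23 ± 0.03 (adjusted p = 0.00105), with 0.14 in HT (adjusted p = 0.00182). Impa1 (ENSMUSG00000027531, chr3:10311956-10331439, - strand), which encodes the inositol monophosphatase that lithium inhibits, had 1680, 1742 and 2045 in fluoxetine against 1953, 2082 and 2232 in lithium and fell by 0.23 ± 0.04 on the log2 scale (adjusted p = 0.00182). Of 32 GSK3 and Wnt genes 2 rose (Ctnnb1 and Rnf43) and 2 fell (Dvl1 and Wnt10a), where 3.12% of all genes rose and 3.98% fell. Of 25 inositol genes 1 rose (Dgkb) and 2 fell (Impa1 and Ip6k1), beside the same shares of all genes. Without fluoxetine male replicate 2, 10 of the 32 and 6 of the 25 were called, where 17.9% of all genes were. Gsk3a (0.09, adjusted p = 0.196), Gsk3b (0.10, adjusted p = 0.262), Impa2, Inpp1 and the inositol transporter gene Slc5a3 were not called, and without fluoxetine male replicate 2 Gsk3b was (adjusted p = 0.000995). Frat1, which binds GSK3, had 175, 213 and 268 in fluoxetine against 124, 164 and 189 in lithium and rose by 0.46 ± 0.09 (adjusted p = 0.00598).

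Of 15 serotonin genes tested 1 rose and 0 fell, where 7.1% of all genes were called. Htr2c, a receptor edited in RNA, had 876, 1367 and 1537 normalized counts in fluoxetine against 641, 919.7 and 1450 in lithium. Htr2c rose by 0.42 ± 0.12 (adjusted p = 0.0401). The groups overlapped, and leaving out any of 14 of the 20 libraries lost the call. Htr1a (0.13, adjusted p = 0.177) and Htr2a (0.05, adjusted p = 0.631) were not called, nor was Trip12 (0.05, adjusted p = 0.524), which was called without fluoxetine male replicate 2 (0.10, adjusted p = 0.0176).

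Most called genes of synaptic release and glutamate reception were higher in fluoxetine. Of 34 presynaptic genes 5 rose and 2 fell, and of 35 postsynaptic scaffold genes 4 rose and 0 fell. Of 32 glutamate receptor genes 4 rose and 0 fell, where 3.12% of all genes rose and 3.98% fell. In females limma called 7, 4 and 3 members of these lists in turn, where 5.32% of all genes were called. In males limma and edgeR called 0 of each and DESeq2 called 1, 1 and 2, where limma called 0.526% of all genes. There 9, 4 and 7 members had an unadjusted p under 0.05. Rims1, which docks vesicles at release sites, had 7873, 10784 and 11426 normalized counts in fluoxetine against 6083, 7545 and 9644 in lithium and rose by 0.42 ± 0.08 (adjusted p = 0.00561), and by 0.50 in HT (adjusted p = 7.97e-05). Syn1, a vesicle coat protein, had 20060, 23379 and 26403 in fluoxetine against 17016, 18416 and 21989 in lithium and rose by 0.27 ± 0.06 (adjusted p = 0.00711). Sv2a and Cplx1 were the presynaptic genes that fell. Of 32 GABA receptor and interneuron genes 1 rose and 3 fell (Pvalb and the peptides Vip and Npy). Without fluoxetine male replicate 2 that list held 5 rises and 4 falls, where 8.63% of all genes rose and 9.27% fell. Of 40 potassium channel genes 2 were called, where 7.1% of all genes were: Kcnn3, a calcium-gated channel, rose by 0.32 and Kcnj4, an inward rectifier, fell by 0.24. Without fluoxetine male replicate 2, 9 rose and 1 fell, where 8.63% of all genes rose and 9.27% fell. Of 18 Hedgehog genes 1 was called, where 7.1% of all genes were: the transcription factor Gli3 rose by 0.36 ± 0.09 (adjusted p = 0.0178). Of 25 cortical layer genes 3 rose (Bcl11b, Ntsr1 and Nr4a2) and 0 fell, and 11 rose in HT, where 11.4% of all genes did. With depth as a covariate the adjusted p of these 3 genes was 0.0585 to 0.11.

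Called markers of interneurons and astrocytes were lower and those of myelin and microglia higher, and in bulk tissue fewer cells of a type and less RNA per cell cannot be told apart. With the sexes together 3.12% of all genes rose and 3.98% fell, the shares to set beside the marker counts. Pvalb, the marker of fast-spiking interneurons, had 392, 484 and 784 normalized counts in fluoxetine against 605, 735 and 888 in lithium and fell by 0.53 ± 0.09 on the log2 scale (adjusted p = 0.00229). Of 9 interneuron markers 0 rose and 2 fell (Pvalb and Vip), and 5 lay below 0. Their median difference was -0.43 in females, with 7 of 9 below 0, and 0.17 in males, with 4 of 9 below 0. Of 16 myelinating oligodendrocyte markers 3 rose (Ugt8a, Opalin and Ermn) and 16 of 16 lay above 0, with summed levels of 105740 to 186521 in fluoxetine against 59427 to 148560 in lithium. Ugt8a, which makes a myelin lipid, had 1663, 2070 and 2793 in fluoxetine against 837, 1494 and 1983 in lithium and rose by 0.55 ± 0.12 (adjusted p = 0.0106). With depth as a covariate the adjusted p of these 3 genes was 0.0596 to 0.171, and with the length slope 8 of the 16 rose. Of 12 oligodendrocyte precursor markers 1 rose, Enpp6, which marks cells about to myelinate, with 385, 457 and 564 in fluoxetine against 235, 319.8 and 412 in lithium (0.49 ± 0.09, adjusted p = 0.00431). Of 17 microglial markers 3 rose (Cx3cr1, P2ry12 and Itgam) with a list median of -0.01. In HT 0 of these markers rose and 6 fell, where 11.4% of all genes rose and 11.8% fell. Cx3cr1, a chemokine receptor, had 1166, 1435 and 1569 in fluoxetine against 1087, 1145 and 1274 in lithium and rose by 0.29 ± 0.05 (adjusted p = 0.00162), with 0.06 in HT (adjusted p = 0.615). Of 20 endothelial and mural markers 5 rose and 1 fell: the vascular growth factor receptor Kdr rose by 0.46 and the smooth muscle actin Acta2 by 0.48, and Ly6c1 fell by 0.33. Of 14 meningeal fibroblast markers 1 was called, where 7.1% of all genes were: the collagen Col3a1 rose by 0.58. Of 16 astrocyte markers 0 rose and 3 fell (Aldoc, Gjb6 and Fgfr3). Without fluoxetine male replicate 2, 2 rose and 5 fell, where 8.63% of all genes rose and 9.27% fell. Outside these lists, Etnppl (ENSMUSG00000019232, chr3:130617448-130637521, + strand), an enzyme of phosphoethanolamine breakdown known from astrocytes, had 211, 347.6 and 547.6 in fluoxetine against 459.1, 776.2 and 1168 in lithium and 168.3, 363 and 728.7 in vehicle, and fell by 1.07 ± 0.15 (adjusted p = 0.00132). The fluoxetine and lithium values overlapped.

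Cell cycle genes, which mark dividing cells, were higher. Of 30 tested 5 rose (Mki67, Top2a, Hmmr, Foxm1 and Ccne2) and 0 fell, with a median of 0.25, where 3.12% of all genes rose. In females 5 were called, with a median of 0.3, where 5.32% of all genes were called. In males limma and edgeR called 0 and DESeq2 2, with a median of 0.175 and 5 at an unadjusted p under 0.05. Limma called 0.526% of all genes there. Mki67 had 65.19, 126.1 and 198 normalized counts in fluoxetine against 49.42, 68.02 and 93.4 in lithium and rose by 0.86 ± 0.16 (adjusted p = 0.0037). Hmmr, which organises the spindle, had 40.72, 48.53 and 70.9 in fluoxetine against 21.37, 31.48 and 37.36 in lithium, with no overlap, and rose by 0.66 ± 0.10 (adjusted p = 0.00162). Of 28 interferon-induced genes 0 rose and 2 fell (H2-D1 and H2-K1), where 7.1% of all genes were called. Of 26 cholesterol synthesis genes limma, edgeR and DESeq2 called 0, and 1 had an unadjusted p under 0.05.

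Other large differences did not belong to a list. Rasl11a, a small GTPase gene, had 60.78, 79.75 and 92.94 normalized counts in fluoxetine against 93.37, 126.7 and 173 in lithium, with no overlap, and fell by 0.74 ± 0.10 (adjusted p = 0.00128), and by 0.71 in HT. Atp10b, a lipid flippase gene, had 61.51, 77.71 and 110.9 in fluoxetine against 34.12, 45.28 and 69.58 in lithium and rose by 0.76 ± 0.13 (adjusted p = 0.00211). Bc1, a noncoding RNA of dendrites, had 749.9, 1544 and 2574 in fluoxetine against 355, 765 and 1143 in lithium and rose by 0.98 ± 0.20 (adjusted p = 0.00626), but near-identical copies in the genome make its count uncertain. Nnt is listed under 2 IDs with opposite signs (0.88 and -0.32), and the sum of both differed by -0.05, so its call is uncertain.

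The sexes were compared in the same model. In females 910 genes were called (5.32%), 377 higher (2.2%) and 533 lower (3.12%), and in males 90 (0.526%), 21 higher (0.123%) and 69 lower (0.403%). The difference between the sexes had 0 calls by limma (0.0%), with 2174 genes at an unadjusted p under 0.05, 0 by edgeR and 72 by DESeq2, so the unequal counts were not shown to be a difference. The smallest p belonged to genes that included Slc32a1, the vesicular GABA transporter, which differed by -0.43 in females and 0.23 in males (adjusted p of the difference 0.156). Of the 910 female calls 723 had the same sign in males, and of the 90 male calls 80 had the same sign in females, and 18 genes were called in both. The difference was lower in females than in males for 78 of 78 cytosolic ribosomal genes and for 73 of 76 nuclear respiratory genes. The male differences include fluoxetine male replicate 2. In males 1 fluoxetine library had a mean log2 level of 0.355 for the respiratory list, with the next highest at -0.021. For the ribosomal list the highest fluoxetine male stood at 0.36 and the next at 0.006. Members share the same libraries, so they are not independent, and the share over all genes was not computed. For immediate early genes the difference was higher in females than in males for 24 of 27 members, with medians of -0.17 in females and -0.43 in males. Olfactory bulb markers had a median difference of -1.27 in females and 0.82 in males. Limma called 0 of these 12 in either sex, 2 had an unadjusted p under 0.05 in each, and edgeR and DESeq2 called 1 in females and 0 in males. Their summed levels were 7131 to 14761 in fluoxetine females against 7602 to 27253 in lithium females, and 5693 to 25645 in fluoxetine males against 4703 to 9979 in lithium males. Their part in the sex-specific values was not tested.

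**Figure D4:**
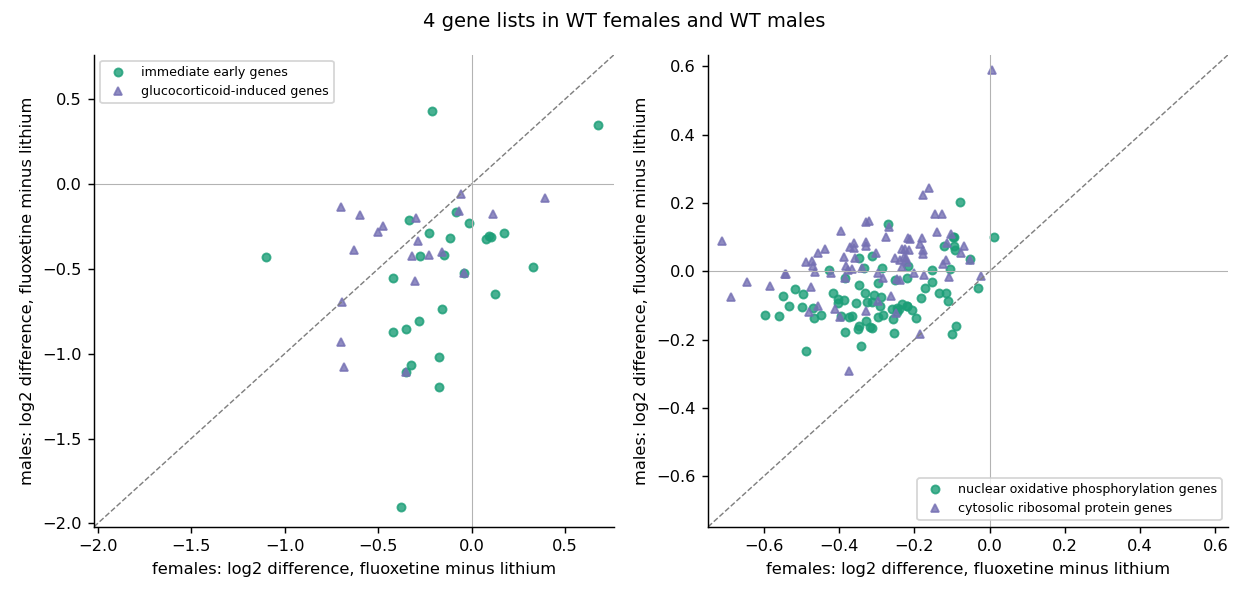
Difference (log2, fluoxetine minus lithium) in females on the horizontal axis against that in males on the vertical axis, for immediate early and glucocorticoid-induced genes on the left and respiratory and ribosomal genes on the right. Points on the dashed line are equal in the sexes. Ribosomal genes sit above the line (78 of 78), and most immediate early genes sit below it (24 of 27). The male differences include fluoxetine male replicate 2.

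In HT cortex 3973 of 17153 genes were called (23.2%), 1948 higher (11.4%) and 2025 lower (11.8%). Of 1214 WT calls tested in HT, 1189 had the same sign (97.9%, against 75.4% of 16954 genes tested in both), and 799 were called in the same direction, which is 65.8% of the WT calls and 20.1% of the HT calls. Without fluoxetine male replicate 2, 1828 were called in the same direction, which is 59.9% of the WT calls and 46.0% of the HT calls. In the full set the number called in the opposite direction was 0. The median absolute difference of the WT calls was 0.236 in WT and 0.235 in HT. HT libraries shared technical imbalances with WT. Depth was 32.8 to 36.6 M reads in HT fluoxetine males against 26.6 to 33.5 M in HT lithium males. Length slopes were 0.0144 to 0.0759 in HT fluoxetine libraries against -0.0701 to 0.0388 in HT lithium libraries. The part of depth, length slope or shared dams in the agreement between genotypes was not tested. The difference between the genotypes had 0 calls by limma (0.0% of 17567 genes), with 1223 genes at an unadjusted p under 0.05 and 0 by edgeR. Among the smallest p was that of Nrn1, a neurite growth gene, which differed by -0.04 in WT and 0.30 in HT (adjusted p of the difference 0.587).

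**Figure D5:**
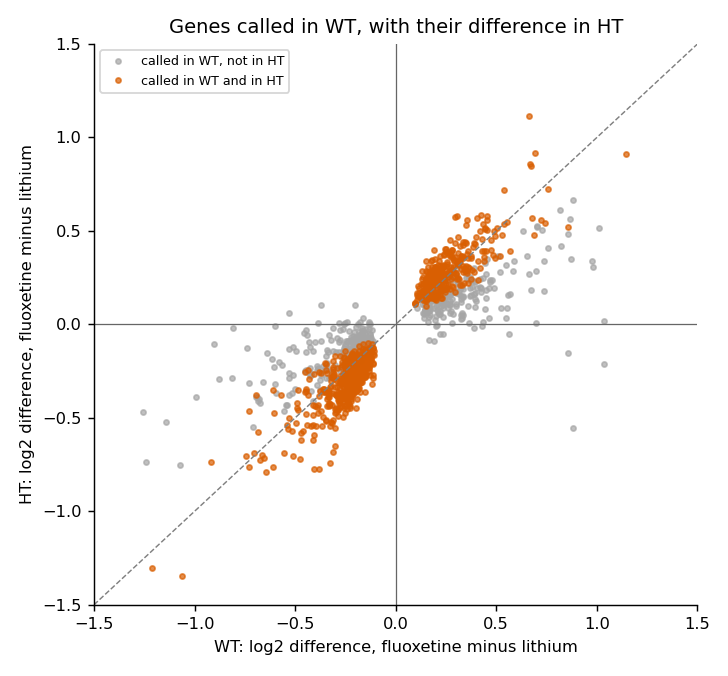
Difference (log2, fluoxetine minus lithium) in HT on the vertical axis against that in WT on the horizontal axis, for the genes called in WT. Colours separate genes called in both genotypes from those called in WT and not in HT, and 2 genes lie beyond the axes. Of 1214 genes, 1189 have the same sign in both.

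The mean of the WT vehicle libraries lay nearer to fluoxetine than to lithium for 416 of the 534 higher genes and 476 of the 681 lower genes, and nearer to lithium for 118 and 205. Vehicle depth was lower, at 26.9 to 30.3 M reads, so this is a description of levels. The processed pseudogene Gm12671 (ENSMUSG00000095937, chr4:91851668-91852669, - strand) was named after its values were seen. It was above 0 in 6 of 10 WT fluoxetine and 0 of 10 WT lithium libraries. It thus passed the filter only through fluoxetine, and its call is no support for a difference. How its reads were assigned was not tested. It is listed at 0 in 20 of 20 lithium libraries of both genotypes, and above 0 in 11 of 20 fluoxetine libraries and 4 of 20 vehicle libraries. The WT fluoxetine values above 0 lay at 350.5 to 711.4 in 2 females and 113.7 to 664.3 in 4 males.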

How the data were processed

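RNA of prefrontal cortex was sequenced after TruSeq Stranded mRNA preparation, per the labels' protocols. The deposited signal values are gene-level read counts that the authors divided by a size factor for each library, as the values themselves show, and the tools were DESeq2 1.19.11, Salmon 0.11.2 and R 3.6.0, with the build GRCm38, per the submitters' processing notes. The annotation, the strand setting and the filter behind the 18088 genes are not given in the sources used here. With strand use unstated, reads of a gene and its antisense partner cannot be told apart. Values were whole multiples of 1 read in 100% of cells within a tolerance of 0.01, so reads could be recovered, and WT libraries of these drugs held 25.1 to 36.5 M reads. No pair of libraries was identical (0 pairs).

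Symbols, positions and exonic lengths came from GENCODE on GRCm38, matching 18077 IDs. A gene was tested where 5 or more of the 20 libraries reached 10 normalized counts (17103 tested, 985 removed), and limma-trend (limma 3.58.1, R 4.3.3) was fitted on log2(value + 1) with sex as a block. Within-sex differences and their interaction used a mean for each drug and sex. HT libraries were fitted alone, and the genotype interaction over 40 libraries. P-values were adjusted by Benjamini-Hochberg over all genes, and tests are two-sided. The fits were checked on simulated data. edgeR 4.0.16 and DESeq2 1.42.0 on recovered reads, other scalings, filters, pseudocounts, covariates, weights and left-out libraries were alternatives.

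The members and the 41 gene lists were chosen with earlier results of these data known. Named genes were the 12 largest rises and falls among calls averaging 50 or more, the 6 largest in each sex, up to 4 called members of a list by p, and fixed drug-target and activity genes, from which fewer are printed. Gm12671 apart, genes outside these orders are list members named to complete a count. Promoters came from RefSeq (GRCm38.p6). Beside the motifs shown, an endoplasmic reticulum stress element, a heat shock element, a glucocorticoid response element, a shorter cyclic AMP element (TGACG) and a core of the NRF1 site (CGCANGCG) were searched, the last pair added after the data were seen, with the NRF1 letters shortened once after a first search. The glucocorticoid element was in 1 of 11 called promoters (0.476% of all), the heat shock element in 1 of 3 (0.608%), the stress element in 0 of 1 (0.12%) and the NRF1 core in 11 of 24 called respiratory promoters (8.24%). Among list members with a promoter, called or not, these elements were found in 2 of 18, 4 of 19, 9 of 22 and 26 of 63. The called counts are therefore a description of the lists. A member counted if any of its promoters held the element, and matches on chromosome 18 were not counted. The shares of all promoters count each distinct promoter on every chromosome, so they are not directly comparable. A withheld result is not reported here.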

Additional observations from a re-analysis of the deposited data

Results flagged for a closer look

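Of 124 groups of 5 values tested, 8 held a sample far from the other 4 of its group, and chance flags about 1 in 20 such groups. Fluoxetine male replicate 2 had 3199 normalized counts of Atf4, against 2842 to 2939 in the other fluoxetine males, 1166 of Cx3cr1, against 1404 to 1474, and a length slope of -0.218, against 0.00166 to 0.0166. Fluoxetine male replicate 1 had 1958 of Dusp6, against 1601 to 1628. Among lithium males, replicate 5 had 4610 of Arc (others 7766 to 8258), replicate 2 had 742.9 of Etnppl (others 459.1 to 520.7) and replicate 3 had 354.9 of Bc1 (others 647.1 to 749.8). Lithium female replicate 5 had 21719 of Syn1, against 17016 to 17963 in the other lithium females. The causes were not tested.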

How the results depend on the processing

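Among 156 results for named genes 140 were called. None of these 140 reversed under any alternative run (0), 62 kept their call under every alternative and 97 with every library left out. Uncalled genes that changed sign were Tmem163 (-0.0353) and Impa2 (-0.0237) with depth as a covariate, Impa2 without fluoxetine male replicate 2 (-0.0185, in a range of -0.0185 to 0.0588 over left-out libraries), and Trip12 (-0.0138), Ntrk2 (-0.0194) and Inpp1 (-0.0076) with the length slope as a covariate, an alternative chosen after seeing the data.

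With the sexes together (1215 calls) array weights gave 3976, depth as a covariate 886 (639 of the 1215 kept) and the length slope 1440 (938 kept). Leaving out 1 library gave 745 to 3056: 804 without fluoxetine female replicate 5, 745 without fluoxetine male replicate 5, 766 without lithium female replicate 1 and 3056 without fluoxetine male replicate 2. In females (910) DESeq2 gave 1649, the length slope 483 and array weights 3819, and leaving out 1 library gave 338 to 2044. Each fluoxetine female (457 to 599), lithium female replicates 1 to 4 (338 to 459), lithium female replicate 5 (1636) and fluoxetine male replicate 2 (2044) moved that count by over 1.5 times. In males (90) DESeq2 gave 434, all 60 libraries 197, depth 0 (804 at an unadjusted p under 0.05), striatal and olfactory bulb markers 18, and the length slope and array weights 436 each. Leaving out 1 library gave 17 to 612: fluoxetine male replicates 2 (612), 3 (49), 4 (30) and 5 (17), lithium male replicates 2 (27), 3 (26), 4 (21) and 5 (57) and lithium female replicate 5 (146) moved it by over 1.5 times. The sex difference had 0 calls in each fit but DESeq2 (72) and with each library left out (0). The cause was not tested.

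The replicate block gave 619 calls together, 332 in females and 27 in males. Deviations of same-numbered libraries were weakly correlated (10 pairs, r of -0.156 to 0.11, 1 over 0.1, 3 libraries closest to their own number). The labels do not say whether libraries of the same number share a litter or batch, and these correlations cannot decide it.

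List counts moved with single libraries. Immediate early genes (12) gave 7 without fluoxetine female replicate 5 or male replicate 5, late activity genes (7) gave 4 without lithium female replicate 2 or male replicate 3, and glucocorticoid genes (11) gave 7 without lithium female replicate 4. Stress, respiratory, ribosomal, presynaptic and myelin counts moved by over 1.5 times without any of 9, 9, 13, 11 and 11 libraries. Leaving out 1 library gave 1 to 8 called glutamate receptor genes (11 libraries moved the count so far), 1 to 4 interferon genes (12 libraries), 2 to 10 postsynaptic genes (4), 1 to 6 inositol genes (4), and 4 to 10 GSK3 and Wnt genes (fluoxetine male replicate 2). Depth differed by drug in males, so drug and depth cannot be told apart there.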
